A study of Mus musculus with 113 samples.

Results

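The expression of 10 genes of the primitive endoderm and of fibroblast growth factor (FGF) signalling was followed through mouse preimplantation embryos in which nuclear receptors were knocked down or Nr5a2 was base edited. The 10 genes were listed by name: the primitive endoderm genes Gata6, Gata4, Sox17 and Pdgfra, the ligand Fgf4, the receptors Fgfr1, Fgfr2 and Fgfr3, and the feedback inhibitors Spry4 and Dusp6. They are 10 of the 24006 genes in each of 92 RNA-seq libraries, and 21 further samples of the 113 in the series were not analysed here. Values are FPKM (fragments per kilobase of transcript, relative to all mapped fragments), which are already scaled to gene length and to each library.

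In the blastocyst, inner cell mass cells become epiblast or primitive endoderm. Epiblast precursors secrete FGF4, which acts through FGFR1 and FGFR2 on neighbouring cells, and the resulting ERK kinase activity favours the endoderm programme. GATA6 is the earliest factor of that programme, followed by the receptor PDGFRA and the factors SOX17 and GATA4. SPRY4 dampens signalling upstream of ERK and DUSP6 dephosphorylates ERK itself, and both genes are usually switched on by the pathway they restrain. All embryos studied here were at the 2-cell (2C), 4-cell (4C) or 8-cell (8C) stage, before these cells separate.

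The study's methods give C57BL/6N females and PWK/PhJ males as the parents of its embryos. In 32 libraries, zygotes had received siRNA and embryos were then pooled, with 2 libraries in each group. Negative control (NC) siRNA was given at 20 μM at 2C and in the quadruple knockdown (4KD) experiment at 4C and 8C, at 15 μM in the triple knockdown (3KD) experiment and at 5 μM in the single knockdown experiment. Gene-specific siRNA was given at 5 μM for each of Nr5a2, Rarg, Nr1h3 and Nr2c2, alone, in threes or all together, and at 20 μM for Nr5a2 at 2C. The other 60 libraries were single embryos at 2C or 8C with base editor mRNA (BE, 100 ng/μl), an Nr5a2 guide (sgRNA, 100 ng/μl) or both, with 8, 8 and 14 embryos at each stage. The study calls the pools of a group biological replicates, and whether they came from separate injections is not given in the sources used here.

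FPKM files carry no read depth. The sum over genes lay between 265390 and 556462 in the pools and between 83392 and 474480 in single embryos. The lowest belonged to 8C BE + sgRNA replicate 8, with 5472 genes at 1 FPKM or more. A 2C sgRNA embryo (replicate 8) and 2 of the 8C BE + sgRNA embryos (replicates 13 and 14) carry a 4-cell stage in their column names, against their labels. That 2C embryo had 52.6 FPKM summed over 7 oocyte genes, the lowest of its group, whose median was 1391. A library labelled 8C sgRNA replicate 7 had a sum of 207918 and 6.29 FPKM of Gata6. Single embryos were further divided into a BE4 run and an eBE run, by column name where editor mRNA was given and by the nearest library number for embryos with the guide only. BE4 and eBE read as names of editors, whereas the study's methods name only an eBE construct, and no label speaks of runs. Differences of editor and of batch between these 2 parts cannot be told apart. Nr5a2 was lower in every group that had received its siRNA: in the single knockdown it stood at 9.65 and 12.8 FPKM against 50.3 and 48.8 in NC (limma, log2 difference -2.06 ± 0.35 SE, adjusted p = 0.0115). In that experiment Nr5a2 also lay below both NC pools without its siRNA, and was not called. It was at 42.3 and 44.6 FPKM for Rarg, 34.8 and 34.9 for Nr1h3 and 44.2 and 30.7 for Nr2c2. In the other groups with Nr5a2 siRNA limma did not call it against NC, with adjusted p of 0.81 (4KD, 4C), 0.38 (4KD, 8C), 0.13 to 0.26 (3KD) and 0.89 (2C). Those fits missed even the targeted gene, so 0 members called there does not show that the members were unchanged. Base-edited embryos had Nr5a2 mRNA between 28.8 and 108 FPKM at 8C, and the amount of mRNA does not check an edit of its sequence.

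Several markers that define primitive endoderm were at or near 0. Of the 16 listed markers, Sox17 was at 0 in 68 of 92 libraries, Sox7 in 85, Foxa2 in 87 and Ttr in 89, and Gata6, Gata4, Dab2 and Amn were among those detected. Fewer expressing cells and less RNA per cell cannot be told apart in whole-embryo RNA.

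From 2C to 8C the members went separate ways. In single control embryos (16 at each stage, BE and sgRNA groups together), Gata6, Fgfr2 and Fgfr3 rose and Spry4, Dusp6, Gata4 and Sox17 fell, so that 7 of 10 members passed an adjusted p of 0.05 in limma. This share stands against 72.5% of the 12991 genes tested, 28.9% higher and 43.6% lower, and the median log2 difference was -0.04 over the members and -0.31 over all genes. The list of called members moved with the processing: quantile normalization added Fgfr1 and Pdgfra and dropped Gata4.

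Gata6, the endoderm factor, was nearly silent at 2C, with a lowest value of 0 FPKM, a median of 0.368 and a highest of 8.07. At 8C the same 3 values were 6.29, 45.0 and 82.1 FPKM. The highest 2C value belonged to the embryo with a 4-cell column name and the lowest 8C value to sgRNA replicate 7. Without them, the highest 2C value was 3.50 and the lowest 8C value 31.5, so the stages did not overlap. The log2 difference was 4.49 ± 0.31 (SE, adjusted p = 1.47e-19). Gata6 was also higher in 8C pools (18.4 to 67.8 FPKM, 6 NC pools) than in the 4C NC pools, which had 8.86 and 5.08 FPKM. Within the 4KD experiment that stage difference was 2.23 ± 0.71 with an adjusted p of 0.53. limma called 0 of 10476 genes (0%) between 8C and 4C NC pools, with 776 at an unadjusted p under 0.05.

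Spry4 showed the opposite course. It ran from 1.31 to 152 FPKM at 2C, with a median of 42.9, and from 0 to 5.31 at 8C, with a median of 0.803. The lowest 2C value was again the embryo with a 4-cell column name, and the next lowest was 13.3 FPKM. NC pools had 43.8 and 25.3 FPKM at 2C and 0.58 and 0.14 FPKM at 4C. The log2 difference from 2C to 8C in single embryos was -4.22 ± 0.31 (adjusted p = 2.26e-18). Dusp6, the other inhibitor, was more scattered: 0.591 to 29.3 FPKM at 2C and 0 to 13.9 at 8C, with medians of 7.15 and 1.78, and a log2 difference of -1.37 ± 0.43 (adjusted p = 0.00414). Its stages overlapped widely, and within the eBE run the difference was -0.69 (adjusted p = 0.22).

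Among the receptors, Fgfr2 and Fgfr3 passed the test. Fgfr2 rose from a median of 2.08 FPKM to 8.28 (log2 difference 1.39 ± 0.31, adjusted p = 6.03e-05), and Fgfr3 from 0.852 to 2.33 (0.95 ± 0.25, adjusted p = 0.000786). Fgfr1 had medians of 3.00 and 4.55 FPKM, a log2 difference of 0.38 ± 0.29 with an adjusted p of 0.24, and with quantile normalization it passed as well (0.83 ± 0.27, adjusted p = 0.00505). The changes of the receptors were not tested against each other. Fgf4, their ligand, had medians of 4.86 at 2C and 2.50 at 8C, with ranges of 0 to 13.2 and 0.508 to 11.7 FPKM and a log2 difference of -0.46 ± 0.40 (adjusted p = 0.31). Without the embryos with a 4-cell column name or an FPKM sum under 210000 that difference passed the test (-0.97 ± 0.43, adjusted p = 0.0397). With quantile normalization the log2 difference changed sign, to 0.047, and was not called. Its pools were at 6.35 and 12.9 FPKM in 4C NC and at 1.41 and 1.65 in 8C NC of the same experiment, without overlap.

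Gata4 and Sox17 had their higher values early. Gata4 fell from a median of 9.44 to 4.13 FPKM, a log2 difference of -0.99 ± 0.36 (adjusted p = 0.0125). With quantile normalization its adjusted p was 0.084. Sox17 reached 6.58 FPKM in a 2C sgRNA embryo and 4.72 in a 2C BE embryo, and 0.107 at most in 8C controls. That BE embryo, replicate 5, had 48.75 FPKM summed over 10 cumulus and granulosa genes, against a group median of 1.97. Its oocyte gene sum of 672.7 FPKM was the lowest of its group. Whether cumulus or granulosa RNA bears on its Sox17 was not tested. Pdgfra, the receptor marking endoderm precursors, stayed near the floor, with medians of 0.562 and 0.839 FPKM and a highest value of 9.59 in an 8C BE embryo. Its log2 difference was 0.39 ± 0.23 (adjusted p = 0.12), and it passed only with quantile normalization among the settings tried (0.94 ± 0.24, adjusted p = 0.000386). Beside these changes, the summed oocyte genes had medians of 1422 and 1391 FPKM in the 2C BE and sgRNA groups and of 32.1 and 29.5 at 8C. Their part in the results was not tested.

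**Figure D1:**
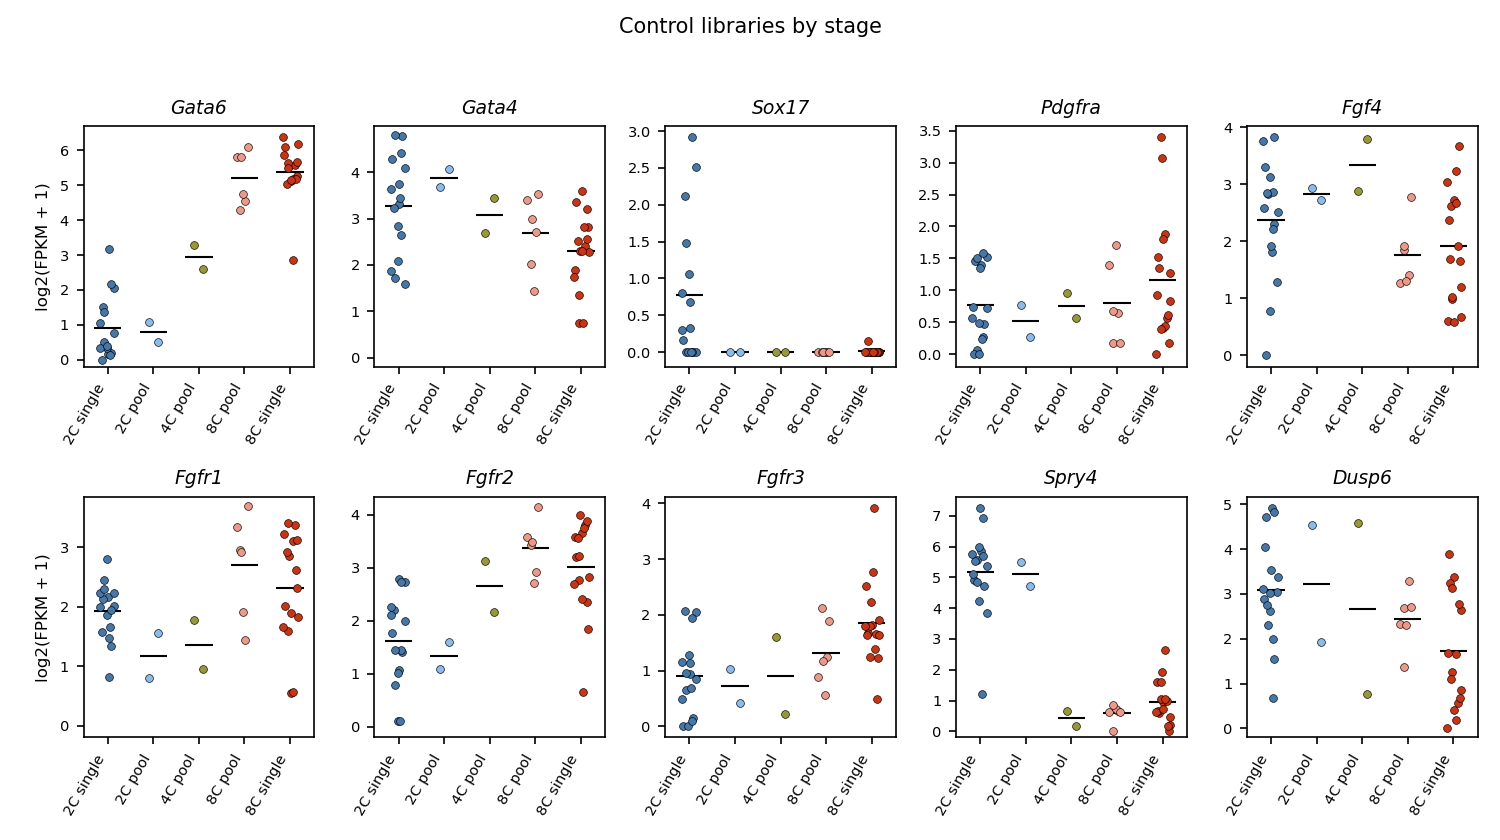
FPKM of each member in control libraries by stage, on a log2(FPKM + 1) axis. Points are libraries, bars are means, and single embryos (BE and sgRNA groups) and NC pools are shown apart. Gata6 climbs from 2C to 8C, Spry4 drops between 2C and 4C, and Sox17 lies at 0 in nearly every library after 2C.

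Genes of the wider pathway were called in both directions over the same interval, at a share below that of all genes. Of 46 other FGF and ERK pathway genes in the files, 41 were tested, 8 were higher and 18 lower at 8C, with a median log2 difference of -0.50. The 63.4% called compare with 72.5% over all genes, and the direction was lower for 43.6% of all genes. Among those with the smallest adjusted p, Nf1, a brake on RAS, fell by 1.83 on the log2 scale, and the kinase Mapk3 fell by 3.90. Il17rd, an FGF antagonist, fell by 1.83, and Fgf3, a ligand, rose by 2.82. Of 24 other primitive endoderm genes in the files, 14 were tested, 2 were higher and 8 lower, or 71.4% called, close to the share over all genes. Cited1 rose by 2.63, whereas Nid2 and Srgn fell by 2.16 and 3.82 and Sparc by 1.77.

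Across the 22 group means, the pattern of Gata6 was most like those of Lasp1, Gga2 and Vars (Pearson r = 0.978, 0.974 and 0.971, log2 scale, among 9180 genes). Spry4 was most like Slc15a5, Gm10512 and Gm19299 (r = 0.994, 0.993 and 0.992), and Fgfr2 was most like Ppfibp2, Id3 and Vps41 (r = 0.952 for each). Fgfr1 had its closest partner in Nr4a1 (r = 0.922), and Dusp6 in Lgals3 (r = 0.858). For Fgf4 the highest value was 0.693 with Prkcd, and for Gata4 it was 0.819 with Kctd13. Among the members themselves the closest pair was Gata6 and Fgfr2 (r = 0.872). The groups span the 2C, 4C and 8C stages and come from 1 study, and the values describe these groups only.

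In the 8C pools with a single knockdown, the members' levels were compared with NC for each nuclear receptor. Knockdown of Nr5a2 was accompanied by lower Fgfr2, and by lower values of Gata6 and Fgfr1 that missed the threshold. limma called 1 of 10 members (7 tested), against 2.75% of 10163 genes. The median log2 difference was -0.70 over the tested members and -0.22 over all genes.

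Fgfr2 stood at 3.39 and 2.46 FPKM after Nr5a2 knockdown and at 10.2 and 16.6 in NC. Both knockdown pools lay below both NC pools, with a log2 difference of -1.85 ± 0.42 (adjusted p = 0.0414). The call was lost without any single pool of the comparison, with adjusted p between 0.073 and 0.31 and log2 differences between -2.18 and -1.52. Gata6 was at 9.86 and 24.0 FPKM against 55.6 and 67.8 (-1.92 ± 0.49, adjusted p = 0.0621), and Fgfr1 at 2.60 and 0.93 against 6.61 and 11.9 (-1.91 ± 0.54, adjusted p = 0.0888). Neither overlapped with NC. Gata4 pointed the other way in 1 pool only, at 26.4 and 10.5 FPKM against 7.0 and 10.5. Dusp6 was at 3.72 and 9.64 FPKM against 5.47 and 5.53, and Fgf4 at 2.79 and 2.21 against 2.78 and 5.84. Alongside, the 7 epiblast markers, Fgf4 among them, summed to 57.3 and 67.3 FPKM after Nr5a2 knockdown and to 202 and 296 in NC, and the 7 oocyte markers to 86.9 and 135 against 36.2 and 45.2. Their part in the lower Fgfr2 was not tested.

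The other knockdowns had 0 members called: limma called 0.00984% of genes for Rarg, 0.00984% for Nr1h3 and 0.0787% for Nr2c2. Fgfr2 was at 7.63 and 11.6 FPKM for Rarg, 7.92 and 11.1 for Nr1h3 and 5.71 and 8.20 for Nr2c2. The Nr2c2 pools lay below both NC pools, and the others overlapped with NC. Gata6 was below NC in all 3, at 23.9 and 39.2, 21.5 and 34.8, and 26.6 and 45.1 FPKM. The NC pools of this experiment were the highest: 8C NC pools had Gata6 at 54.7 and 22.5 FPKM in the 4KD and 18.4 and 26.1 in the 3KD experiment. Those values span all 6 pools of these 3 knockdowns, and the 24.0 but not the 9.86 of the Nr5a2 knockdown. Whether the high NC values bear on the differences was not tested. Fgfr1 was below NC for Rarg, at 1.56 and 5.33 FPKM, and for Nr1h3, at 3.53 and 2.82. It overlapped with NC for Nr2c2, at 3.52 and 7.0.

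The ligand Fgf4 had higher mean values than in NC after these knockdowns. It was at 6.09 and 21.5 FPKM for Rarg, 14.7 and 5.4 for Nr1h3 and 4.76 and 10.4 for Nr2c2, against 2.78 and 5.84 in NC. Only the Rarg pools did not overlap with NC, with a log2 difference of 1.31 ± 0.63 (adjusted p = 1.0), beside 0.98 for Nr1h3 (adjusted p = 1.0), 0.67 for Nr2c2 (adjusted p = 0.93) and -0.54 for Nr5a2 (adjusted p = 0.70). Dusp6 was lowest for Nr2c2, at 1.33 and 3.31 FPKM, below both NC pools (-1.04 ± 0.58, adjusted p = 0.93).

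Compared directly with the mean of the other single knockdowns, the Nr5a2 knockdown had an Fgfr2 difference of -1.28 ± 0.34 on the log2 scale (adjusted p = 0.0618), without overlap. For Fgf4 it was -1.53 ± 0.51 (adjusted p = 0.13), also without overlap. Most of this gap lay in the comparison groups, whose means were above that of NC, with overlap for Nr1h3 and Nr2c2. For Gata6 it was -0.95 ± 0.40 (adjusted p = 0.22), with overlap. That comparison called 3.95% of genes and 0 members.

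**Figure D2:**
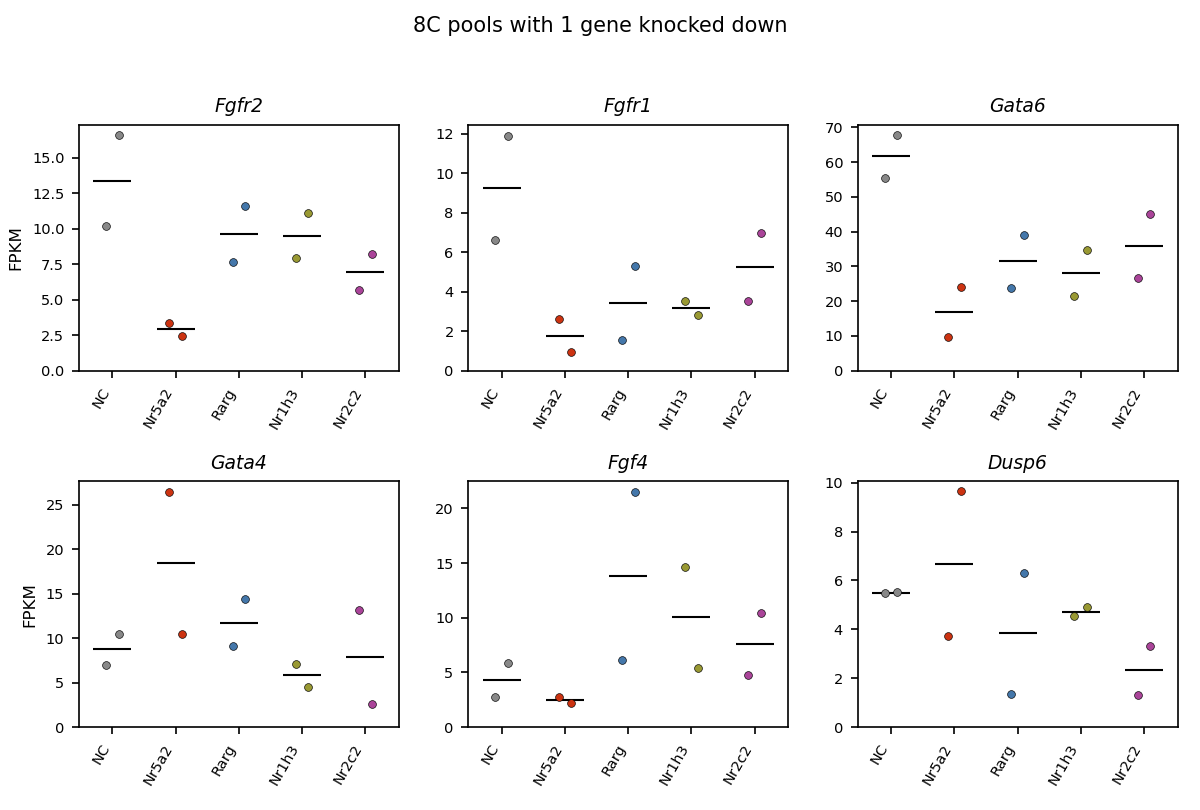
FPKM of 6 members in the 8C pools with 1 gene knocked down, 2 pools a group, with bars at the means. Fgfr2 in the Nr5a2 knockdown lies at 3.39 and 2.46, below every other pool shown. Gata6 is below the NC pools of this experiment in all 4 knockdowns, and those had the highest Gata6 of the 8C NC pools.

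The upstream sequence of Fgfr2 is shown because Fgfr2 was the only member to pass the test in a knockdown under the main settings. It is the 250 bases before the transcription start in RefSeq (GRCm38.p6, chr7:130266809-130267058, minus strand, written 5′ to 3′), with 44% G and C.

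Fgfr2: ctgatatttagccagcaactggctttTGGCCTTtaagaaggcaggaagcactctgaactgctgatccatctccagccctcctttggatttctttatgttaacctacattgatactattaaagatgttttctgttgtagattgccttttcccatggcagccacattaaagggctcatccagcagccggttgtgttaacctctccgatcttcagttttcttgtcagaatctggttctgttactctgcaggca

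Capitals mark a match to AAGGNCA, read on the opposite strand, 224 to 218 bases before the start. CAAGGNCA, the form of site usually given for NR5A2, was searched first on both strands. It was found in 5.53% of 32851 such sequences and in 0 of the 6 that belong to members (Pdgfra, Fgf4, Fgfr2, Dusp6 and 2 of Fgfr3). The shorter AAGGNCA, contained in it, was chosen after the match in Fgfr2 had been seen, and 17.5% of all sequences hold it. In the mouse build mm9, which the FPKM files used, the longest known coding transcript of Fgfr2 spans chr7:137307223-137409777 on the minus strand.

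With 3 receptors knocked down, Dusp6 and Gata4 had their highest values in the 3 combinations that included Nr5a2, where neither overlapped with NC. The test called neither under the main settings, and it called Gata4 under no setting tried. Of 37 other FGF and ERK pathway genes tested, 15 lay apart from NC with Rarg spared, 9 with Nr1h3 spared and 16 with Nr2c2 spared. With 2 pools a group, values often lie apart by chance, and the share over all genes was not computed. These counts are therefore not read as a response of the pathway. Dusp6 was at 1.60 and 3.93 FPKM in NC, at 18.0 and 11.3 with Rarg spared, at 24.1 and 13.9 with Nr1h3 spared, at 18.5 and 21.7 with Nr2c2 spared, and at 9.90 and 4.12 where Nr5a2 was spared. All 6 pools with Nr5a2 siRNA were above all 4 others. Where Nr5a2 was spared, Dusp6 was also above both NC pools, by a log2 difference of 1.06 ± 0.57 (adjusted p = 1.0). With Nr5a2 siRNA the log2 differences from NC were 2.09, 2.43 and 2.55, each ± 0.57, with adjusted p of 0.36, 0.27 and 0.23. Same-numbered 3KD libraries deviated alike, and once that number entered the fit as a replicate block the last of these, the combination of Nr5a2, Rarg and Nr1h3, had an adjusted p of 0.0471, when 0.612% of genes were called.

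Gata4 was at 3.05 and 1.71 FPKM in NC and at 2.73 and 3.96 where Nr5a2 was spared. With Nr5a2 siRNA it was at 6.17 and 7.80, 8.44 and 7.70, and 8.38 and 10.8 FPKM in the same order as above. These 6 pools were again above the other 4, with log2 differences of 1.26, 1.45 and 1.67, each ± 0.51, and adjusted p of 0.69, 0.58 and 0.38. Sparing Nr5a2, set against the mean of the other 3KD groups, gave -1.30 ± 0.47 for Dusp6 (adjusted p = 0.35) and -1.08 ± 0.41 for Gata4 (adjusted p = 0.40). Genes called over the whole table came to 0.282% in that comparison, to 0% in both the group that spared Nr5a2 and the group that spared Nr2c2, to 0.0565% where Rarg and to 0.00941% where Nr1h3 was spared. The test called 0 members in each. At an unadjusted p under 0.05 the group sparing Nr5a2 had 251 genes and the group sparing Nr2c2 had 783. Oocyte genes summed to 43.9 and 52.2 FPKM in NC and 28.6 and 61.9 where Nr5a2 was spared, and to between 94.8 and 190 in the groups with Nr5a2 siRNA. Whether they bear on Dusp6 and Gata4 was not tested.

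Fgfr2 and Gata6 overlapped with NC in the groups with Nr5a2 siRNA, and their 2 replicates lay far apart. Gata6 was at 18.4 and 26.1 FPKM in NC and, in these groups, at 11.4 and 25.2, 7.0 and 27.0, and 5.86 and 22.3. Fgfr2 was at 9.82 and 5.59 FPKM in NC and at 13.9 and 2.29, 11.6 and 5.88, and 12.1 and 5.18. The first replicate was the lower for Gata6 and the higher for Fgfr2 in each of these groups. Where Nr5a2 was spared, Gata6 was at 14.8 and 17.2 FPKM, below both NC pools, and Fgfr2 at 17.7 and 6.41. Fgf4 was at 2.78 and 4.13 FPKM in that group against 2.62 and 1.48 in NC, without overlap. In the group that spared Nr1h3, Fgf4 was at 6.15 and 2.72 and Spry4 at 2.38 and 1.04 FPKM, both above NC, where Spry4 was at 0 and 0.647.

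**Figure D3:**
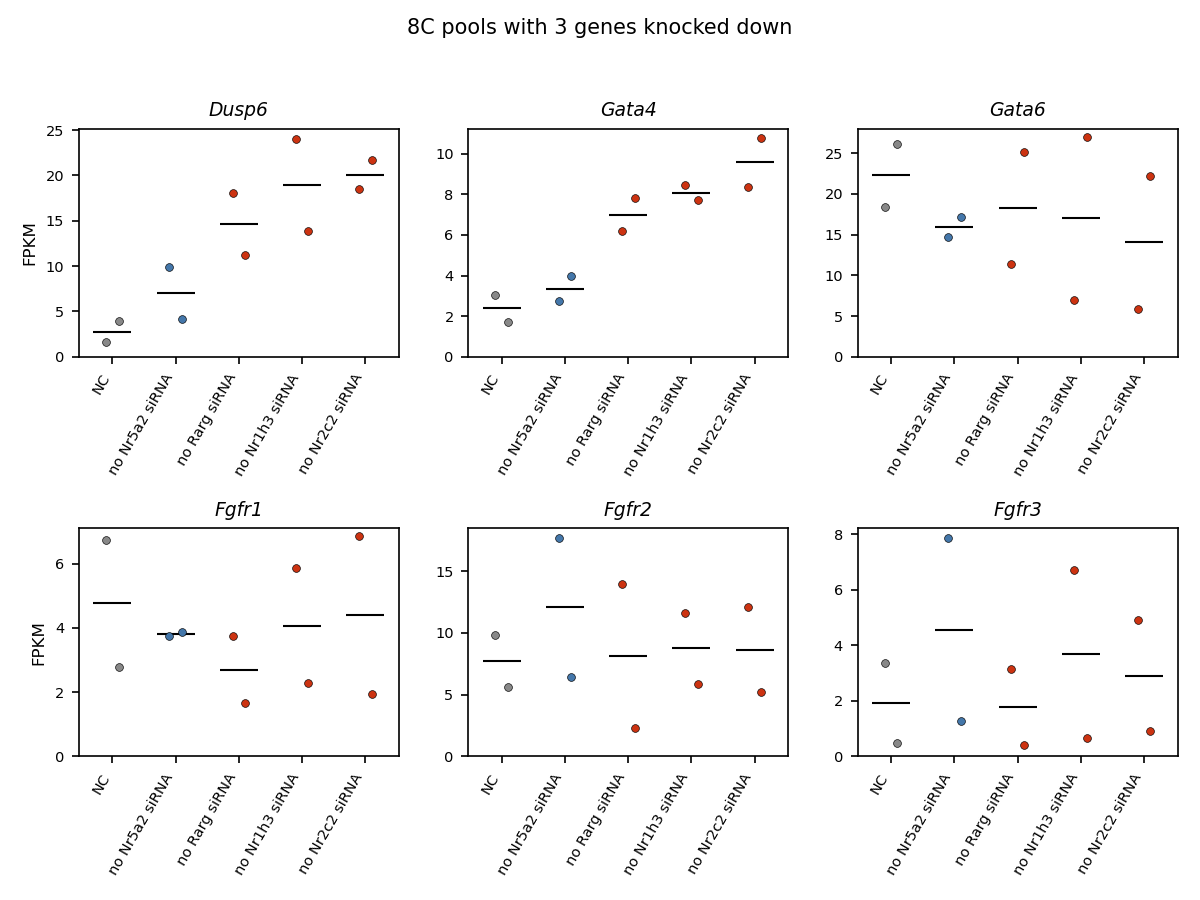
FPKM of 6 members in the 8C pools with 3 genes knocked down, 2 pools a group, named by the gene that was spared, with bars at the means. Dusp6 and Gata4 are highest in the 3 groups that had received Nr5a2 siRNA. The NC pools shown had the lowest Gata4 of the 8C NC pools.

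With all 4 receptors knocked down, no member passed the threshold, and neither did Nr5a2 itself. limma called 0% of 10476 genes at 4C and 0% at 8C, with 610 and 784 at an unadjusted p under 0.05, and 0% for the difference between the stages, with 259. At 8C Dusp6 was at 12.7 and 14.2 FPKM against 4.01 and 8.72 in NC, without overlap (log2 difference 1.05 ± 1.08, adjusted p = 0.93). Gata6 was at 26.9 and 9.31 against 54.7 and 22.5 FPKM, with overlap. Fgfr2, called in the single Nr5a2 knockdown, was at 8.8 and 6.18 against 10.9 and 6.53 FPKM (log2 difference -0.17 ± 0.58), with overlap. Fgfr1 was at 1.84 and 1.64 against 9.07 and 1.70 FPKM (-0.93 ± 0.66), also with overlap. At 4C the log2 difference of Fgfr2 was -0.08 ± 0.58. At 4C Gata4 was at 20.5 and 11.6 FPKM against 5.49 and 9.90, without overlap (0.97 ± 0.56, adjusted p = 0.91). At 8C, however, it was at 12.2 and 5.81 FPKM against 9.50 and 5.52, with overlap (0.20 ± 0.56). Dusp6 at 4C spanned 22.9 and 0.70 FPKM within NC alone. At 2C, where Nr5a2 siRNA was given alone, 0.0167% of genes and 0 members were called. Spry4 was at 29.6 and 37.0 FPKM against 43.8 and 25.3 in NC, and Gata4 at 13.5 and 12.2 against 11.9 and 15.9.

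Base editing of Nr5a2 was compared in single embryos with the mean of the BE and sgRNA groups. At 8C, 0 of the members and 0.164% of 9760 genes were called. Gata4 and Fgfr3 had the largest differences. Gata4 ran from 0 to 38.0 FPKM with a median of 12.5 in 14 edited embryos, against 0.664 to 11.1 with a median of 4.13 in 16 controls. Its log2 difference was 1.18 ± 0.36 (adjusted p = 0.23). The value of 0 was replicate 8, the library with the lowest FPKM sum, and without it the difference was 1.45 ± 0.28 (adjusted p = 0.0124). Within the runs the difference was 1.09 ± 0.36 in eBE (adjusted p = 0.16) and 0.91 ± 0.56 in BE4 (adjusted p = 0.999).

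Fgfr3 ran from 0.452 to 14.5 FPKM with a median of 6.22 in edited embryos and from 0.399 to 14.2 with a median of 2.33 in controls. The highest control was sgRNA replicate 7, and the next was 5.78 FPKM. The log2 difference was 0.95 ± 0.30 (adjusted p = 0.25), or 1.73 ± 0.25 within the eBE run (adjusted p = 0.0124) and 0.68 ± 0.43 within the BE4 run (adjusted p = 0.999). In the eBE run all 6 edited embryos (5.10 to 13.8 FPKM) lay above all 8 controls (0.399 to 2.74). A cut chosen after seeing the data left out embryos with a 4-cell column name or an FPKM sum under 210000. At 8C these were BE + sgRNA replicates 8, 13 and 14 and sgRNA replicate 7. The cut gave 1.39 ± 0.23 for Fgfr3 (adjusted p = 0.0100) and 1.20 ± 0.27 for Gata4 (adjusted p = 0.0338). It removed the highest control (14.2 FPKM) and the lowest edited value (0.452) of Fgfr3. For Gata4 it removed both the lowest (0) and the highest (38.0) edited value.

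Dusp6 had a median of 8.01 FPKM in edited embryos, 5.02 in BE and 0.883 in sgRNA embryos, with a log2 difference of 0.78 ± 0.48 (adjusted p = 0.59). Gata6 had medians of 34.5 and 45.0 FPKM in edited and control embryos (-0.44 ± 0.34, adjusted p = 0.71), and its 2 lowest edited values, 4.14 and 9.76, belonged to the embryos with a 4-cell column name. Fgfr2 had medians of 6.62 and 8.28 FPKM (-0.09 ± 0.33, adjusted p = 0.96) and Fgfr1 of 3.69 and 4.55 (-0.07 ± 0.37, adjusted p = 0.97). The small differences of Fgfr2 and Fgfr1 changed sign under several settings, and that of Gata6 with a replicate block. Oocyte genes summed to a median of 83.7 FPKM in edited 8C embryos, against 32.1 and 29.5 in BE and sgRNA embryos. Whether they bear on Gata4 and Fgfr3 was not tested.

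At 2C, 0.00805% of 12420 genes and 0 members were called. Fgfr3 had medians of 0.300 FPKM in edited and 0.852 in control embryos (-0.47 ± 0.22, adjusted p = 0.41), and Gata4 of 20.3 and 9.44 (0.74 ± 0.38, adjusted p = 0.44). Cited1, one of the other primitive endoderm genes, was lower by a log2 difference of -1.72 (adjusted p = 0.0372), the 1 gene called in that comparison. That call was lost without a filter on low values (adjusted p = 0.060), with a replicate block (0.40), with the sgRNA group alone as control (0.13), with run as a term (0.077) and within the eBE run (0.29). The difference between the stages' editing effects was tested directly. For Fgfr3 it was 1.42 ± 0.37 (adjusted p = 0.13), with 0.0385% of genes called, and 1.68 ± 0.35 without the embryos with a 4-cell column name (adjusted p = 0.0243).

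**Figure D4:**
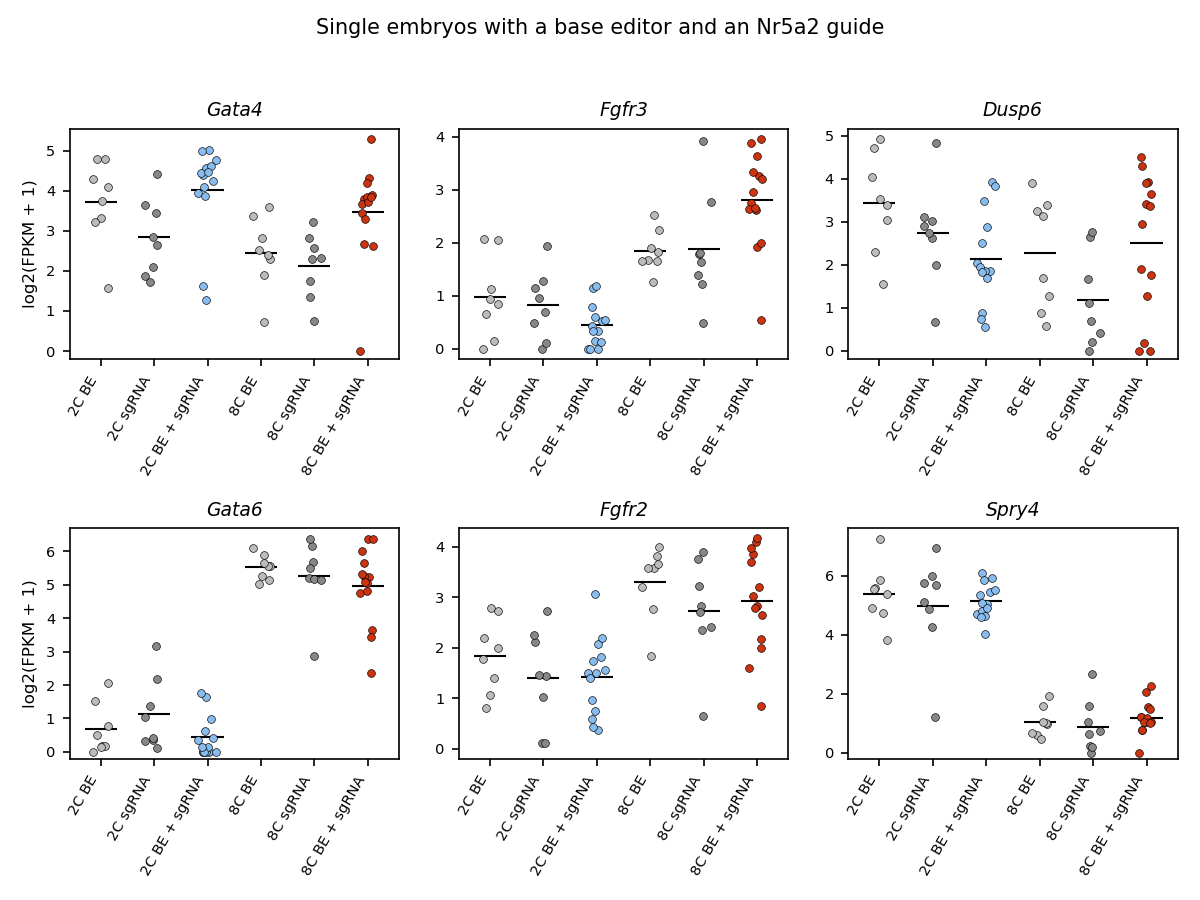
Levels of 6 members in single embryos on a log2(FPKM + 1) axis, for 8 BE, 8 sgRNA and 14 BE + sgRNA embryos at 2C and at 8C, with bars at the means. Gata4 and Fgfr3 sit higher in edited 8C embryos with overlap, and Gata6 and Spry4 differ by stage far more than by editing.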

How the data were processed

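Expression values are FPKM, which the authors computed with Cufflinks from Smart-seq2 reads mapped to mm9 with TopHat and deposited as 1 table per library. They are already normalised to length and library, and no read counts were used, so depth is unknown. Libraries were grouped by their GEO titles. Values were tested as log2(FPKM + 1) with limma 3.58.1 (empirical Bayes, trend) over genes with a group mean of at least 1 FPKM, and p-values were adjusted by Benjamini-Hochberg over all of them. A member was called at an adjusted p under 0.05. Log2 differences of low genes are understated by the added 1. The study's count-based test could not be applied to FPKM. The script was tested on simulated data.

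The members and gene lists were chosen with earlier results of these data known. All 10 members are given with their levels. Other list genes are named at an adjusted p under 0.05, at most 5 a list and comparison. A few genes that this rule names are not reported here. Replicate numbers were taken to pair the 3KD libraries, since same-numbered libraries deviated alike in every pair of groups (r from 0.299 to 0.544). Guide-only embryos were put in a run by library number, and that of 2C sgRNA replicate 1 was settled after a first fit.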

Additional observations from a re-analysis of the deposited data

Results flagged for a closer look

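In groups of 8 single embryos, 1 value stood further from the rest than Dixon's limit allows in 7 of 40 combinations of a member and a group. About 2 would be flagged if values were normally distributed. Raw FPKM are skewed and hold many values at 0, so an excess over chance is not shown. Spry4 was at 151.8 FPKM in 2C BE replicate 4, with the others between 13.3 and 57.4. Gata6 was at 8.07 FPKM in 2C sgRNA replicate 8, the embryo with a 4-cell column name, with the others at 3.50 or below. Replicate 7 of the 2C sgRNA group had 6.58 FPKM of Sox17 and 27.5 of Dusp6, with the others at most at 1.79 and 7.61. Sox17 was at 0.107 FPKM in 8C BE replicate 5 and at 0 in the others. Fgfr3 and Spry4 were at 14.2 and 5.31 FPKM in 8C sgRNA replicate 7, with the others at most at 5.78 and 2.03.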

How the results depend on the processing

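Of 259 recomputed counts of called members, 236 stayed within 1.5 times the reported count and 23 moved, and of 706 recomputed log2 differences, over the 51 given with a test, 653 kept sign and call, 20 lost their call, 18 gained one and 15 changed sign. Those that changed sign were not called either way. For BE + sgRNA at 8C, Fgfr2 was at 0.27 with a replicate block, 0.19 with the sgRNA group alone as control, 0.16 without 4-cell column names, 0.16 with run as a term, 0.62 in the eBE run, 0.0073 without the 8C library under a sum of 200000 and 0.15 without 4-cell names and low sums. Fgfr1 was at 0.10, 0.10, 0.028, 0.054 and 0.14 under the last 5 of these and at 0.17 in the BE4 run, and Gata6 at 0.062 with the block. Fgf4 from 2C to 8C was at 0.047 with quantile normalization. For the Nr5a2 knockdown against NC at 8C (1 member), the count was 0 without a filter on low values, 0 with quantile normalization, 0 at the study's own limits (adjusted p under 0.01 and a log2 difference of at least 2), 0 without any 1 pool, 2 with a group mean of at least 5 FPKM (Gata6 and Fgfr2), 2 with only the groups compared (Fgfr1 and Fgfr2) and 2 with a replicate block (Gata6 and Fgfr2). Against the other single knockdowns it was 1, for Fgfr2, with a group mean of at least 5 FPKM and 1 with median-ratio scaling. For BE + sgRNA at 8C it was 1 in the eBE run only (Fgfr3), 1 without the 8C library under a sum of 200000 (Gata4) and 2 without libraries that had a 4-cell column name or a sum under 210000. For the difference between editing effects it was 1, Fgfr3 each time, without 4-cell column names, with run as a term under either placement of 2C sgRNA replicate 1, without 8C sgRNA replicate 7, and without 4-cell names and low sums. From 2C to 8C, 2 members passed the study's limits (Gata6 and Spry4), and 3 were called in the BE4 run with 2C sgRNA replicate 1 counted in it (Gata6, Spry4 and Dusp6). Without that embryo, comparisons with 2C could not be fitted in the BE4 run. The causes were not tested.

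The replicate block raised the count to 1 (Dusp6) in the knockdown of Nr5a2, Rarg and Nr1h3, and it changed the call of no other member in the 3KD experiment. Single knockdown libraries share only a number (r from -0.0429 to 0.148 between groups). In the 4KD experiment same-numbered pools of 4C and 8C deviated in opposite ways, and crossing the numbers, chosen after seeing the data, gave 7 called genes between 8C and 4C NC pools in place of 0. Settings on low-sum libraries, on 8C sgRNA replicate 7 and on the placement of 2C sgRNA replicate 1 were also chosen after seeing the data. FPKM files carry no depth, so no counting error can be given for low members such as Sox17 and Pdgfra.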
